A study of Mus musculus with 10 samples.

Results

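Rarely included cassette exons are exons that most transcripts of their gene skip. They were selected from the deposited splicing table as cassette exons longer than 30 nt whose proportion spliced in (PSI, the share of a gene's transcripts at that exon that include it) averaged under 0.1 over NZO and B6-ob/ob islets. The rule kept 1282 exons in 1049 genes, which is 1.17% of the 109822 cassette exons over 30 nt and part of a table of 167895 splicing events. Of the 12720 genes with a cassette exon of this length, 8.25% held at least 1 such exon, and 167 genes held more than 1.

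Islet RNA came from 5 NZO mice (strain NZO/HiBomDife) and 5 B6-ob/ob mice (strain C57BL/6J.V-Lepob/ob). NZO mice are obese through many loci and prone to diabetes, whereas B6-ob/ob mice are obese because they lack leptin and stay protected. All were males that ate a high-fat diet without carbohydrates up to an age of 18 weeks and were then briefly given carbohydrates, so both groups share sex, obesity and the diet switch, and no lean or unswitched mice stand beside them. The strains differ across the genome, and islets hold several cell types. The authors pooled the mice of a strain into 1 PSI per exon, so each PSI below is the authors' pooled value with no error and no n. No test between strains was possible on them, the depth behind each PSI is unknown, and any strain difference is a description. The labels give pancreas as the source and the study isolated islets. All 9 beta cell markers were detected, at mean normalized counts of 10706 to 6676905, while 5 of 6 acinar markers were detected, none above 402.

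A cassette exon is spliced into some transcripts of a gene and left out of others. If an inserted exon brings a stop codon in frame or shifts the frame, the transcript is often degraded by nonsense-mediated decay, and such exons are called poison exons. Many genes of RNA-binding proteins use poison exons to limit their own level. Other rarely included exons keep the frame and add a stretch of amino acids that belongs to a neuronal, muscle or epithelial form of the protein.

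The sequences of a few exons show both kinds. They are the reference letters of C57BL/6J, taken from GENCODE M21 transcripts on GRCm38 (mm10), so that NZO variants are not shown. The first 5 exons bring a stop, and each is printed from its first base to the stop codon that is first in frame, in capitals. Borcs8 encodes a subunit of the BORC complex on lysosomes (chr8:70144498-70144525, plus strand). Ctnnd2 encodes delta-catenin of cell junctions (129-nt exon, chr15:30499303-30499330, plus strand). Jade3 encodes a scaffold of a histone acetyltransferase complex (chrX:20487298-20487379, plus strand). Tra2a encodes an SR-related splicing activator (chr6:49252965-49253108, minus strand), and Nova1 encodes a splicing factor best known from neurons (chr12:46817392-46817450, minus strand).
Borcs8: agcccacatggtggaagaagagcacTGA
Ctnnd2: tctggaggttcaggcaaagatctggTAA
Jade3: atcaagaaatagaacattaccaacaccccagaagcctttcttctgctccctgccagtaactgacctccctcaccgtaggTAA
Tra2a: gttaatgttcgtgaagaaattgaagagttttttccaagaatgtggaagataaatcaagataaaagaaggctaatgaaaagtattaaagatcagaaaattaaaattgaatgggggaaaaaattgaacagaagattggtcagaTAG
Nova1: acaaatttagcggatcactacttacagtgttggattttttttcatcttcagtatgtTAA

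The next 5 exons are printed whole, in lower case, because each adds whole codons and no stop. They belong to the Cav1.3 calcium channel gene Cacna1d (60 nt, chr14:30129789-30129848, and 45 nt, chr14:30082952-30082996, both minus strand), the active zone scaffold gene Rims2 (chr15:39517806-39517871, plus strand), the vesicle priming gene Unc13b (chr4:43166668-43166700, plus strand) and the hyaluronan receptor gene Cd44 (chr2:102845285-102845410, minus strand).
Cacna1d, 60 nt: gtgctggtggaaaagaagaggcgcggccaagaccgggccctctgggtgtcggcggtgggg
Cacna1d, 45 nt: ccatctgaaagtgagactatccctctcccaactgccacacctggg
Rims2, 66 nt: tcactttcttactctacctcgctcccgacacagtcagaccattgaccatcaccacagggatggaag
Unc13b, 33 nt: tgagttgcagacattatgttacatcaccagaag
Cd44, 126 nt: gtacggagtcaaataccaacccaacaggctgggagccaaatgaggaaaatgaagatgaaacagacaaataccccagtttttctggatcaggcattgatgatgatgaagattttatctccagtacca

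Most of the exons that could be read in frame broke the reading frame. Inserting the exon into a coding transcript that skips it was possible for 1038 of the 1282 exons. An in-frame stop arose for 602 (58.0%), a frame shift with no stop inside the exon for 127 (12.2%), and whole codons without a stop for 309 (29.8%). The first in-frame stop began at a median of base 31.5 of the exon, with quartiles of 15.25 and 63.0. Together, 70.2% of the rarely included exons broke the frame (95% exact interval 67.3 to 73.0), against 45.9% of 1708 cassette exons of mean PSI 0.1 to 0.9 (43.5 to 48.3) and 53.2% of 2467 of mean PSI of 0.9 or more (51.2 to 55.2). Both differences passed the two-sided Fisher's exact test, with adjusted p = 1.16e-35 and 6.93e-21 over 10 tests of this family. Exons of 1 gene are not independent, and intervals cover counting error only. With 1 exon per gene the shares were 73.5%, 47.1% and 43.2%, and in genes whose mean normalized count reached 100 they were 70.0%, 44.6% and 52.9%. Exons could be placed only where the annotation holds a coding transcript that skips them, which held for 2467 of the 100803 exons of high PSI. Split by the type of transcript that holds the exon, the rarely included and intermediate shares lay much closer, as given below.

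**Figure D1:**
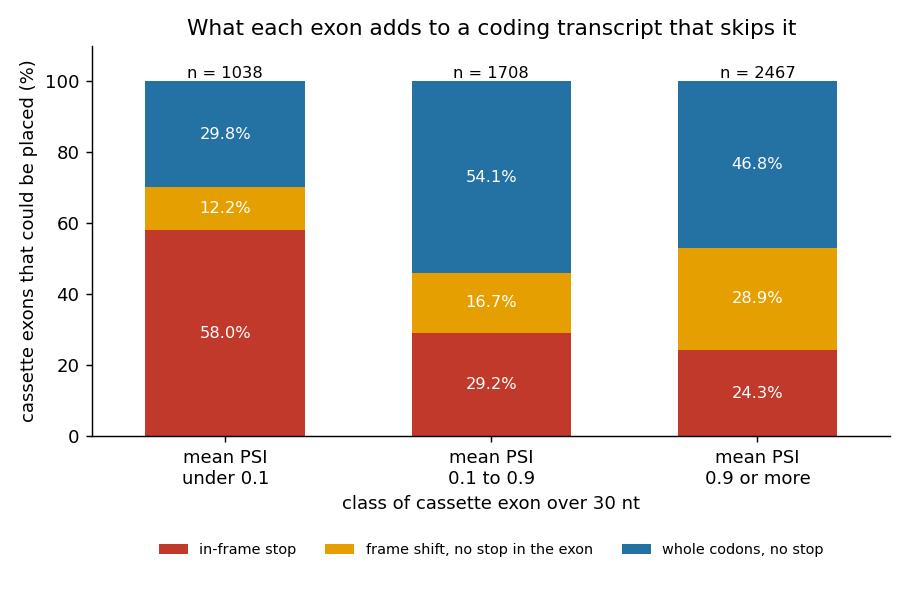
Share of exons (percent of those that could be placed in a coding transcript that skips them) whose insertion brings an in-frame stop, a frame shift, or whole codons, for 3 classes of mean PSI; n is the number of exons placed. Stops reached 58.0% in the rarely included exons, against 29.2% and 24.3% in the other classes.

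The annotation of the transcripts that carry these exons split them in the same way. Transcripts of type protein_coding held 663 of the 1282 exons (51.7%), and 343 (26.8%) were held only by transcripts labelled as targets of nonsense-mediated decay. Among placed exons, 543 of 564 (96.3%) broke the frame where no protein_coding transcript held them, against 186 of 474 (39.2%) where one did. In the same split, the shares at intermediate PSI were 93.0% of 273 exons and 36.9% of 1435. At high PSI they were 90.2% of 41 and 52.6% of 2426. Within each group the rarely included exons lay close to those of intermediate PSI. Where a protein_coding transcript held them, they lay below those of high PSI. These differences were not tested. The labels of transcript types rest partly on such stops, so this is a description of the annotation. Of the 602 exons with a stop, 134 (22.3%) still lay in a protein_coding transcript, while 288 of the 309 exons of whole codons (93.2%) did.

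Fewer of the rarely included exons touched annotated coding sequence. An exon past a stop, or held only by transcripts without annotated coding sequence, does not count as touching it. The share therefore depends on the transcript labels and is not independent of the stops above. As many as 1038 of the exons lay between coding exons of a transcript that skips them. A coding sequence of any annotated transcript overlapped 767 of them (59.8%, interval 57.1 to 62.5), against 86.2% of exons of intermediate PSI, for an adjusted p = 1.66e-97 by the two-sided Fisher's exact test, and 98.3% of exons of high PSI. A further 262 (20.4%) lay in untranslated regions and 253 (19.7%) in noncoding transcripts, and 1275 of the 1282 matched an annotated internal exon at both ends. The exons were also shorter, with a median of 99 nt (quartiles 66 to 142), against 114 nt at intermediate and 120 nt at high PSI. The mean normalized count of their genes had a median of 1328, against 154 for genes of intermediate exons and 1130 for those of high exons, so the intermediate class came from genes of lower level.

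The exons were more often a whole number of codons long than exons of high PSI. A length divisible by 3 was found for 608 exons (47.4%, interval 44.7 to 50.2), against 38.7% of exons of high PSI (adjusted p = 5.15e-10 by Fisher's test, two-sided and exact) and 44.2% of those of intermediate PSI (adjusted p = 0.0313). The comparison with intermediate PSI missed the threshold of Fisher's exact test with 1 exon per gene (45.2% against 44.4%, p = 0.649) and in genes whose mean normalized count reached 100 (47.6% against 46.9%, p = 0.655). Among exons on coding sequence the share was 57.8%, against 45.9% at intermediate PSI (p = 5.42e-10 by Fisher's exact test, an alternative added after the data were seen) and 38.8% at high PSI. In untranslated regions it was 31.3% and in noncoding transcripts 32.8%. Of 520 placed exons with such a length, 211 (40.6%) still held a stop in frame, against 14.6% at intermediate PSI, a difference that was not tested.

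Some exons held sequence that many genes share. A run of 24 bases found in transcripts of 20 or more other genes, on either strand, occurred in 48 exons of 48 genes (3.74%, interval 2.77 to 4.93), against 0.827% of intermediate exons (adjusted p = 1.95e-13) and 0.266% of high exons (adjusted p = 5.73e-36, both by Fisher's exact test). This measure and its limit were chosen after the data were seen. Of the 43 exons of this group that could be placed, 36 brought a stop, 5 a frame shift and 2 whole codons. One such run was held by 5 exons, those of Gja1 (connexin 43), Nolc1 (a nucleolar phosphoprotein), Ppat (the first enzyme of purine synthesis), Rab7 (a GTPase of late endosomes) and, on the opposite strand, Amotl2 (a junction protein), and lies in transcripts of 654 annotated genes. It is printed in capitals because the whole run is shared.
Shared run: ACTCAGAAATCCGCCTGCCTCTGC

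Whether reads of such runs were counted for the right gene was not tested. The PSI of the 135-nt Gja1 exon was 0.0677 in NZO against 0.0461 in B6-ob/ob, and that of the 108-nt Nolc1 exon was 0.0116 in NZO against 0.0187 in B6-ob/ob. The 135-nt Rab7 exon was nearly absent, at 0.00260 in NZO against 0.00222 in B6-ob/ob. The last base of the exon, which pairs with the U1 snRNA of the spliceosome, was G in 74.9% of rarely included exons, against 79.2% at intermediate PSI (adjusted p = 0.0006) and 80.5% at high PSI (adjusted p = 1.47e-06, both by Fisher's exact test). This base, too, was chosen for study after the data were seen.

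Inclusion was low in both strains, and the strains were close. The median PSI was 0.0442 in NZO islets (lowest 0.000307, highest 0.135) and 0.0394 in B6-ob/ob islets (lowest 0.000443, highest 0.191). Of the 1282 exons, 286 had a mean PSI under 0.02, 423 of 0.02 to 0.05 and 573 of 0.05 to 0.1. PSI was higher in NZO islets for 757 exons (59.0%) and lower for 525 (41.0%), where 27.7% of all cassette exons over 30 nt were higher in NZO islets. Both shares come from the values that the rule used, so they carry no test. The median difference, NZO minus B6-ob/ob, was 0.00259. The share higher in NZO was 60.8% for exons with a stop, 66.9% for those with a frame shift and 56.0% for those with whole codons.

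**Figure D2:**
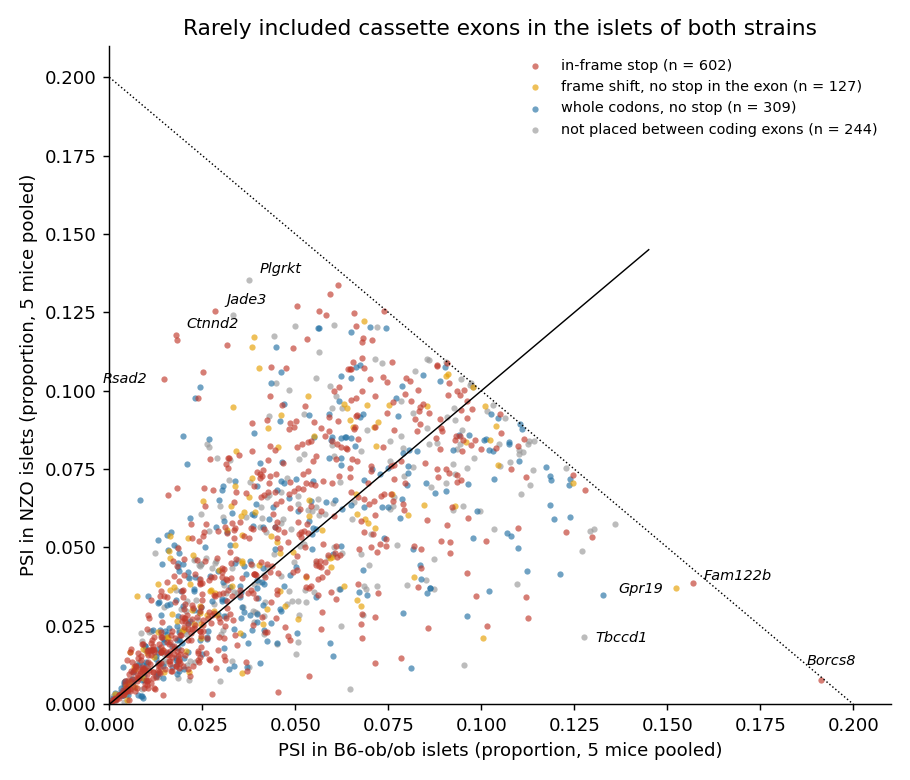
PSI (proportion, mice of a strain pooled) of the 1282 rarely included exons in NZO islets (vertical axis) and B6-ob/ob islets (horizontal axis), coloured by what insertion does to the frame; the solid line marks equal PSI and the dotted line a mean PSI of 0.1, the limit of the rule. Points of every colour lie on both sides of the solid line, with 757 above it, and Borcs8 lies farthest from it.

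**Figure D3:**
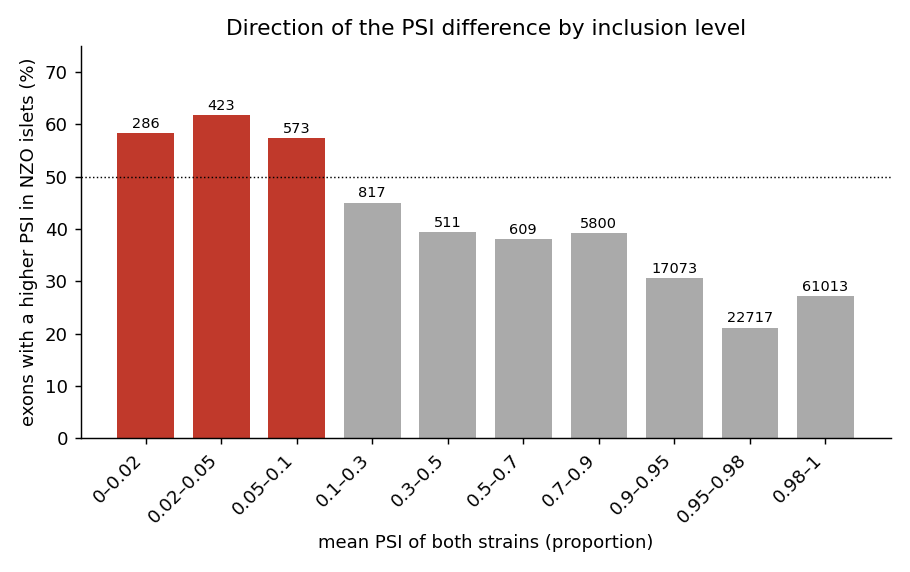
Share of cassette exons over 30 nt with a higher PSI in NZO islets (percent), by mean PSI of both strains; red bars are the rarely included exons, numbers above bars count exons and the dotted line marks 50%. The red bars stand at 58.4%, 61.7% and 57.4%, and every grey bar lies below the dotted line.

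How the exons compared with all cassette exons depended on the size of difference counted. An absolute difference over 0.1 was found for 5 exons (0.390%), 1 higher and 4 lower in NZO islets, where 1.4% of all cassette exons over 30 nt passed the same limit. The mean PSI limit of the rule caps the difference, so this share was low by construction. Over 0.05 there were 93 exons (7.25%), 52 higher and 41 lower in NZO, against 6.17% of all. Over 0.02 there were 448 (34.9%), 279 higher and 169 lower in NZO, against 23.2% of all, so at both smaller limits the share was above that of all cassette exons. The exons named next are the 12 largest differences each way among genes whose mean normalized count reached 100.

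Among the exons lower in NZO islets, that of Borcs8 stood out. Its PSI was 0.00786 in NZO against 0.191 in B6-ob/ob, and the stop printed above begins at base 26 of its 100 bases. The 75-nt exon of Fam122b, with a stop at base 35, was spliced in at 0.0386 in NZO against 0.157 in B6-ob/ob. The 118-nt exon of Gpr19, an orphan G protein-coupled receptor, had 0.0372 in NZO against 0.152 in B6-ob/ob and shifts the frame. In Tbccd1, which encodes a protein related to tubulin cofactors, 2 exons were lower in NZO islets. The 77-nt exon in the untranslated region had 0.0216 in NZO against 0.128 in B6-ob/ob, and the 81-nt exon with a stop had 0.0244 in NZO against 0.0855 in B6-ob/ob. The 81-nt exon holds a run of 24 bases found in 174 other genes.

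Among the other exons lower in NZO islets, the 48-nt exon of Arhgap17, a GTPase-activating protein, was spliced in at 0.0275 in NZO against 0.113 in B6-ob/ob. The 163-nt exon of Nadk, the kinase that makes NADP, had 0.0125 in NZO against 0.0954 in B6-ob/ob, and lies in an untranslated region. The 48-nt exon of Rangap1, the GTPase activator of Ran, had 0.0490 in NZO against 0.127 in B6-ob/ob. Epb41l3, a membrane skeleton protein, held 4 exons of whole codons, and its 36-nt exon had 0.0417 in NZO against 0.121 in B6-ob/ob. The remaining ones were exons of Wdfy1, Ssx2ip and, on chromosome 18, a pair in Tmem241, whose PSI lay between 0.0210 and 0.0576 in NZO, and between 0.1003 and 0.136 in B6-ob/ob.

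Among the exons higher in NZO islets, 2 neighbouring exons of Ctnnd2 lay in noncoding transcripts and had like values. The 129-nt exon was spliced in at 0.118 in NZO against 0.0178 in B6-ob/ob, and the 44-nt exon had 0.116 in NZO against 0.0180 in B6-ob/ob, each with an in-frame stop. The 125-nt exon of Jade3, whose stop begins at base 80, had 0.125 in NZO against 0.0285 in B6-ob/ob. The 435-nt exon of Rsad2, the interferon-induced viperin gene, had 0.104 in NZO against 0.0146 in B6-ob/ob. It holds a run of 24 bases found in 205 other genes.

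Exons of Gnas, Cd44 and Manba were also higher in NZO islets. The 95-nt exon of Gnas, the gene of the stimulatory G protein alpha subunit that raises cAMP, was spliced in at 0.117 in NZO against 0.0388 in B6-ob/ob. The annotated transcript that holds this exon is labelled processed_transcript, not protein_coding. Inserted into a coding transcript that skips it, the exon shifts the frame. Whether transcripts of the alpha subunit carry it was not tested. The 126-nt exon of Cd44, one of the variable exons of that receptor, had 0.101 in NZO against 0.0242 in B6-ob/ob. The 102-nt exon of Manba, a lysosomal mannosidase, had 0.127 in NZO against 0.0503 in B6-ob/ob, with a stop at base 10. The others, in Plgrkt (a plasminogen receptor), Abca5 (a transporter), Ccdc122, Ccdc157 and Dgkq (a diacylglycerol kinase), had PSIs from 0.106 to 0.135 in NZO against 0.0251 to 0.0382 in B6-ob/ob.

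**Figure D4:**
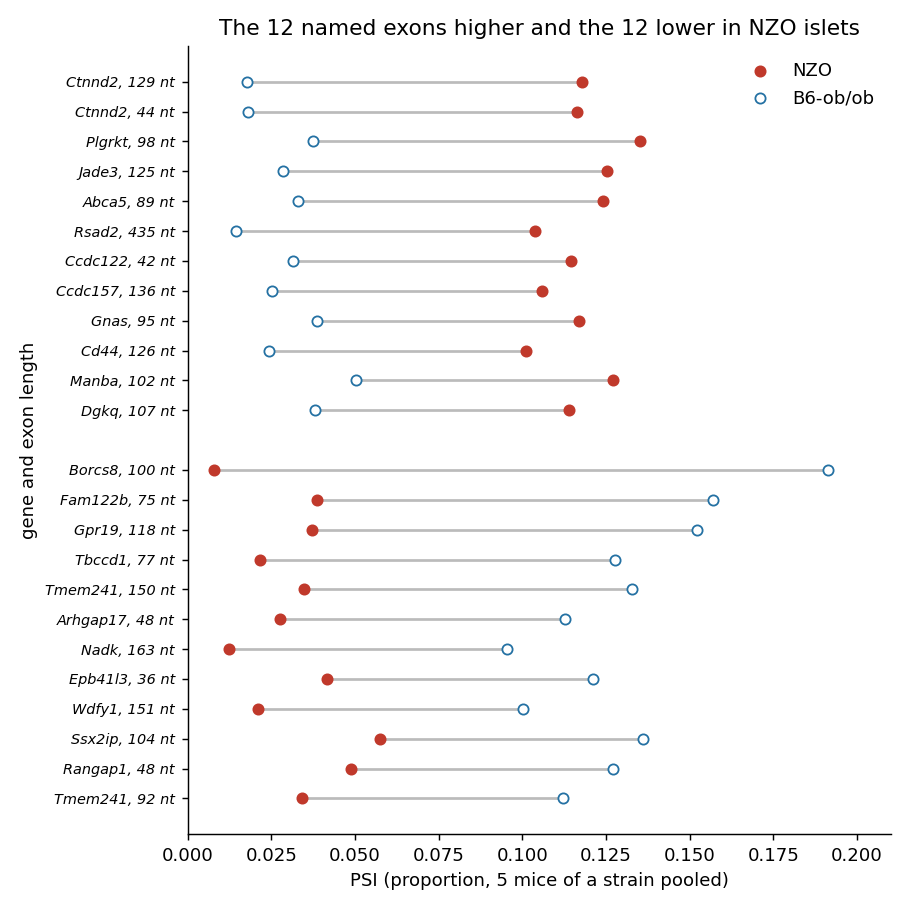
PSI (proportion, mice of a strain pooled) of the 12 exons higher and the 12 exons lower in NZO islets, by gene and exon length; filled points are NZO, open points B6-ob/ob. The line is longest for Borcs8, at 0.00786 in NZO and 0.191 in B6-ob/ob.

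Among the 12 lists, genes of insulin secretion and exocytosis held the largest number of these exons. Of 41 such genes with a cassette exon, 13 (31.7%) held at least 1, against 8.25% of all genes with one. A share of genes also depends on how many cassette exons each gene has. By exon, 22 of their 720 cassette exons were rarely included, where 1282 of all 109822 (1.17%) were, and 4 of the 22 lay in Camk2b. By that measure the list was not the highest, since 6 of 170 cassette exons of tissue-specific splicing factor genes were rarely included, a larger share. Of the 22, 14 were higher and 8 lower in NZO islets, with a median difference of 0.00659. Of 19 that could be placed, 13 added whole codons, 5 brought a stop and 1 shifted the frame. Of all placed rarely included exons, 29.8% added whole codons and 58.0% brought a stop. Several of the 13 lie in the same gene, 4 of them in Camk2b. These lists were chosen with earlier results known, so their counts carry no test. No exon of any list passed a difference of 0.1.

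These exons included ones of the calcium channel and of the proteins that prime and dock granules. The 60-nt exon of Cacna1d was spliced in at 0.0349 in NZO against 0.0694 in B6-ob/ob, while its 45-nt exon had 0.0697 in NZO against 0.0305 in B6-ob/ob. So 2 exons of the same channel gene lay on opposite sides of the strain comparison. The 33-nt exon of Unc13b, which encodes the priming factor Munc13-2, had 0.102 in NZO against 0.0434 in B6-ob/ob. The 66-nt exon of Rims2 had 0.0585 in NZO against 0.0309 in B6-ob/ob. The 149-nt exon of Rab27a, a GTPase that docks granules at the membrane, lies in the untranslated region and had 0.121 in NZO against 0.0498 in B6-ob/ob.

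Other secretion genes held one or more exons each. The 33-nt exon of Itpr1, the IP3 receptor calcium channel of the endoplasmic reticulum, was spliced in at 0.0786 in NZO against 0.0289 in B6-ob/ob. In the kinase gene Camk2d, the 55-nt exon had 0.0883 in NZO against 0.0496 in B6-ob/ob, and the 73-nt exon had 0.0606 in NZO against 0.0665 in B6-ob/ob. Camk2b held 4 exons of whole codons, with PSIs from 0.00523 to 0.0707 in NZO against 0.00321 to 0.0852 in B6-ob/ob. Kcnma1, the large-conductance potassium channel gene, held 3, all slightly higher in NZO, at 0.0175 to 0.0531 in NZO against 0.0115 to 0.0449 in B6-ob/ob.

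Among splicing factors, the tissue-specific ones held the most of these exons. A rarely included exon lay in 6.25% of SR protein genes, 8.33% of hnRNP genes and 4.76% of core spliceosome genes, against 8.25% of all genes. These small counts were not tested. Of 16 SR protein genes only Tra2a held 1, where the exon was spliced in at 0.0289 in NZO against 0.0679 in B6-ob/ob, with its stop at base 142 of 306. Of 24 hnRNP genes, Hnrnpc and Pcbp2 held exons, both in untranslated regions. That of Hnrnpc had 0.0382 in NZO against 0.0801 in B6-ob/ob. Of 22 tissue-specific splicing factor genes, 6 (27.3%) held 1 exon each. By exon, that is 6 of their 170 cassette exons, where 1.17% of all cassette exons were rarely included. Of these 6 exons, 3 were higher and 3 lower in NZO. They include the 65-nt stop exon of Nova1, with 0.0494 in NZO against 0.0671 in B6-ob/ob, and the 43-nt exon of Rbfox2, a factor of neurons and muscle, with 0.0365 in NZO against 0.0163 in B6-ob/ob. Of 42 core spliceosome genes, Prpf38b and Luc7l2 held one, and the 53-nt stop exon of Prpf38b had 0.0534 in NZO against 0.130 in B6-ob/ob.

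Most exons of ubiquitin and chromatin genes that could be placed broke the frame. So did 70.2% of all placed rarely included exons, with a stop in 58.0%, and these small counts were not tested. In 7 of 48 genes of ubiquitin-mediated proteolysis there were 9 exons, 6 higher and 3 lower in NZO, of which 7 brought a stop and 2 shifted the frame. The 70-nt exon of Cul5, a cullin scaffold of ubiquitin ligases, was spliced in at 0.0975 in NZO against 0.0237 in B6-ob/ob, with a stop at base 8. In 8 of 57 chromatin genes there were 9 exons, 5 higher and 4 lower in NZO, of which 5 of the 8 placed brought a stop. The 112-nt exon of the deacetylase gene Hdac5 had 0.0865 in NZO against 0.105 in B6-ob/ob, and its 84-nt exon had 0.0347 in NZO against 0.0136 in B6-ob/ob. The 183-nt exon of Ncoa1, a nuclear receptor coactivator, had 0.0778 in NZO against 0.0324 in B6-ob/ob. Of 18 genes of nonsense-mediated decay factors, only Upf2 held one, with 0.0134 in NZO against 0.0240 in B6-ob/ob.

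Most exons of endocytosis genes that could be placed kept the frame. In 11 of 49 genes (22.4%, against 8.25% of all genes) there were 14 exons, 5 higher and 9 lower in NZO. By exon, 14 of their 668 cassette exons were rarely included, against 1.17% of all. Of the 11 placed, 8 added whole codons, where 29.8% of all placed rarely included exons did. Some of the 14 lie in the same gene, and these small counts were not tested. The 108-nt exon of Bin1, which encodes the membrane-bending amphiphysin 2, lies on chromosome 18 and was spliced in at 0.0114 in NZO against 0.0812 in B6-ob/ob. The 55-nt exon of Ap2b1, a subunit of the AP-2 clathrin adaptor, lies in an untranslated region and had 0.0484 in NZO against 0.0123 in B6-ob/ob. The clathrin light chain genes Clta and Cltb held short in-frame exons known from neurons. The 36-nt exon of Clta had 0.0221 in NZO against 0.0358 in B6-ob/ob, and its 54-nt exon had 0.00696 in NZO against 0.00626 in B6-ob/ob. The 54-nt exon of Cltb had 0.00783 in NZO against 0.00938 in B6-ob/ob.

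Beta cell, stress and diabetes genes held such exons in 4.35%, 3.70% and 9.38% of genes, against 8.25% of all genes. Of 23 beta cell genes, only Pax6, a master regulator of islet cell identity, held one, and its 63-nt exon was spliced in at 0.00401 in NZO against 0.00428 in B6-ob/ob. Of 27 genes of the unfolded protein response, only Dnajb9, a chaperone of the endoplasmic reticulum, held one, at 0.000307 in NZO against 0.000443 in B6-ob/ob. These were the lowest values of any exon in each strain. Of 32 diabetes genes 3 held exons, among them 2 exons of Cdkal1, a tRNA-modifying enzyme, whose 77-nt stop exon had 0.0415 in NZO against 0.0231 in B6-ob/ob.

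In some genes the exons came in blocks. Lrrfip1, which encodes an actin- and nucleic acid-binding protein, held 9, and 7 of them had nearly the same PSI, at 0.0824 to 0.0854 in NZO against 0.0597 to 0.0660 in B6-ob/ob. Its 93-nt exon went the other way, at 0.0716 in NZO against 0.119 in B6-ob/ob. All 7 exons of Ush1c, the scaffold harmonin, were lower in NZO, and 3 neighbours of 153, 117 and 483 nt had 0.0354 to 0.0370 in NZO against 0.0853 to 0.0863 in B6-ob/ob. Mical2, an enzyme that oxidizes actin, and Mdfic held 5 each. All 5 of Mical2 were higher in NZO, and all 5 of Mdfic were lower. Exons that lie side by side share transcripts and junction reads, so the exons of a block are not separate measurements, and 197 of the 1282 exons neighboured another.

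**Figure D5:**
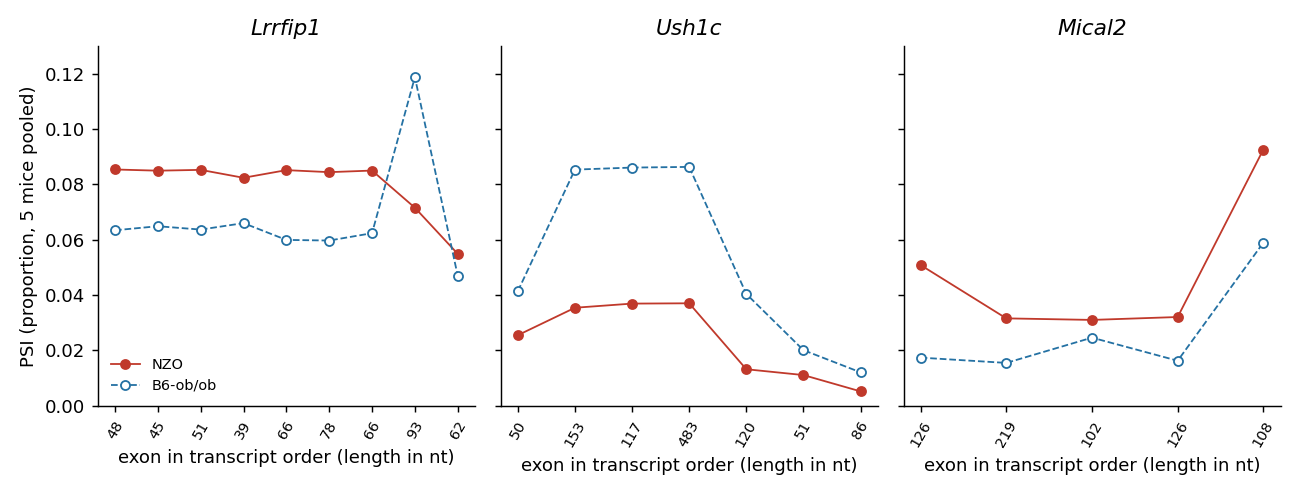
PSI (proportion, mice of a strain pooled) of each rarely included exon of Lrrfip1, Ush1c and Mical2, in transcript order with the exon length on the horizontal axis; filled points and solid lines are NZO, open points and dashed lines B6-ob/ob. NZO lies below B6-ob/ob at all 7 exons of Ush1c and above it at all 5 of Mical2.

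A few exons lay beside an exon of like length and sequence, as in mutually exclusive pairs, where a transcript takes one or the other. A neighbour within 20% of the length and with at least 60% identical letters was found for 7 exons in 7 genes, a comparison chosen after the data were seen, and 5 of the neighbours had a mean PSI of 0.9 or more. In the stress kinase gene Mapk9 (JNK2), the 72-nt exon was spliced in at 0.108 in NZO against 0.0674 in B6-ob/ob, and its neighbour had 0.898 in NZO against 0.938 in B6-ob/ob. In Mapk10 (JNK3), the 72-nt exon had 0.0415 in NZO against 0.0368 in B6-ob/ob, and its neighbour, with a mean PSI under 0.9, had 0.826 in NZO against 0.848 in B6-ob/ob. The rarely included exon lies upstream of its neighbour in Mapk9 and downstream of it in Mapk10. In the SNARE gene Stx3, the 111-nt exon had 0.0176 in NZO against 0.0132 in B6-ob/ob, and its neighbour had 0.991 in NZO against 0.986 in B6-ob/ob. The others were Far1, Unc5a, Kcnma1 (92 nt) and Socs7.

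The pairs are printed with the letters that differ in capitals, to show how far each exon departs from its neighbour. They lie at chr11:49873836-49873907 and chr11:49874264-49874335 on the plus strand for Mapk9, at chr5:102976355-102976426 and chr5:102987203-102987274 on the minus strand for Mapk10, and at chr19:11782800-11782910 and chr19:11783026-11783136 on the minus strand for Stx3, with the rarely included exon first in each.
Mapk9, rarely included: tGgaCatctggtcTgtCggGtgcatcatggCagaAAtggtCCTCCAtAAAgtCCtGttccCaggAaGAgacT
Mapk9, neighbour: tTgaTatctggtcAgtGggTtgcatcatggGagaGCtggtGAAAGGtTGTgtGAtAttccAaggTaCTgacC
Mapk10, rarely included: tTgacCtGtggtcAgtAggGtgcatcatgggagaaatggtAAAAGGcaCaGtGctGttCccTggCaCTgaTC
Mapk10, neighbour: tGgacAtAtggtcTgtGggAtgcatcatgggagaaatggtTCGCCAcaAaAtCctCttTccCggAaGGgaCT
Stx3, rarely included: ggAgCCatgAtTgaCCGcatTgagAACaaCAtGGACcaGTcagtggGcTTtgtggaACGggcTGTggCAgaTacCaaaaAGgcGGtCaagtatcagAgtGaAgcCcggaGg
Stx3, neighbour: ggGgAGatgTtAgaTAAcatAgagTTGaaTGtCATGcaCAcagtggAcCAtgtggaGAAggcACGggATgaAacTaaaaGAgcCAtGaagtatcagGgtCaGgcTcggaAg

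The letters of these pairs were 65.3% identical in Mapk9, 68.1% in Mapk10 and 61.3% in Stx3. All 3 rarely included exons add whole codons. Of the others, that of Unc5a adds whole codons, those of Far1 and Kcnma1 bring a stop, and that of Socs7 was not placed. Each exon was read as added to a transcript that skips it, not as swapped for its neighbour, and a swap was not tested. At the limit of the rule, the exons just inside were those of Lats2 (0.0895 in NZO against 0.110 in B6-ob/ob), D930016D06Rik (0.103 in NZO against 0.0972 in B6-ob/ob) and Sbno1 (0.109 in NZO against 0.0906 in B6-ob/ob). Just outside were exons of Ripk2 (0.148 in NZO against 0.0520 in B6-ob/ob), Xdh (0.102 in NZO against 0.0980 in B6-ob/ob) and Map3k4 (0.0730 in NZO against 0.127 in B6-ob/ob).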

How the data were processed

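Islet RNA of 5 NZO and 5 B6-ob/ob mice was sequenced by the authors, who used Whippet for splicing, with the mm10 annotation of Ensembl, and Salmon and DESeq2 for gene levels (the last 2 named in the submitters' processing notes); versions are not given in the sources used here. The PSI deposited by the authors is a fraction from 0 to 1, pooled over the mice of a strain. The gene table deposited by the authors gives a mean signal, the count normalized over all libraries, for 35214 genes. Neither table holds values per mouse, so depth per sample is unknown and no test between strains was possible. The tables also hold the authors' PSI differences, probabilities, fold changes and adjusted p-values, and separate sheets of significant genes and events, none of which was used.

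Exons were matched to GENCODE M21 (GRCm38) by coordinates. Each was inserted into the first coding transcript by identifier that skips it between coding exons, and the first stop in frame was read, so the frame depends on the annotation. Of 3673 skipping transcripts used, 3665 began with ATG. Shares were compared with exons of mean PSI 0.1 to 0.9 and of 0.9 or more by the two-sided Fisher's exact test, with 95% Clopper-Pearson intervals and Benjamini-Hochberg adjustment over 10 tests. The insertion and testing steps were tested on simulated data.

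Members and lists (12) were chosen with earlier results of these data known. Named exons are the 12 largest PSI differences each way in genes whose mean normalized count reached 100, up to 4 members per list by difference, the 3 nearest the limit on each side and the genes with most members. Other named exons were chosen after their values were seen, and some exons under this rule are not reported here. Alternatives changed the PSI and difference limits, the gene level filter, the exons per gene and the overlap rules. Python 3.11.15, numpy 2.4.6, pandas 2.3.3, scipy 1.17.1, matplotlib 3.10.9 and Biopython 1.88 were used.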

Additional observations from a re-analysis of the deposited data

How the results depend on the processing

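Of 38 alternatives of the tests on frame, placement, length, shared sequence and last base, 36 kept their direction and their side of the threshold. The other 2 both concern length divisible by 3 against exons of mean PSI 0.1 to 0.9, which missed the threshold of Fisher's exact test with 1 exon per gene (45.2%, p = 0.649) and in genes whose mean normalized count reached 100 (47.6%, p = 0.655); the cause was not tested. A mean PSI limit of 0.05 left 709 exons. A PSI difference limit of 0.05 gave 93 exons (7.25%, against 6.17% of all cassette exons) and one of 0.15 gave 1. At 0.05 the share lay above that of all, at 0.1 below it (0.390% against 1.4%). At both limits it lay below that of exons of mean PSI 0.1 to 0.9, which was 37.1% at 0.05 and 17.9% at 0.1. The share lower in NZO was 37.7% among exons with an absolute difference over 0.02, against 41.0% of all. Counting coding sequence of protein_coding transcripts alone moved the coding share to 35.6%, and requiring the whole exon inside coding sequence to 32.6%, with the direction and call kept. Tests of repeat overlap and of splice site strength, planned at the start, were not run, since they need genome sequence that was not used here. No paired analysis was possible because the PSI is pooled over the mice of a strain, and for the same reason no mouse could be left out. The depth behind a PSI is unknown, so differences among the lowest values have no stated precision.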

Other observations

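The exons with a shared run of 24 bases had a median PSI that reached 0.0464 in NZO and 0.0353 in B6-ob/ob. Of these 48 exons, 30 (62.5%) were higher in NZO, close to the 59.0% of all 1282 exons. Among them, the exon of the tyrosine kinase gene Abl1 was spliced in at 0.124 in NZO against 0.0583 in B6-ob/ob, with a stop at base 78, and was chosen after its values were seen. Svil, which encodes an actin-binding protein and lies on chromosome 18, held 4 exons of whole codons, with PSIs from 0.0541 to 0.0717 in NZO against 0.0156 to 0.0549 in B6-ob/ob.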
